A study of Mus musculus with 19 samples.

Results

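Gene expression was compared between the stomach and the colon of the mouse, the organ of acid and pepsin digestion and the organ of water absorption and bacterial residence. The comparison used 2 of the 19 samples of the series, the library labelled Stomach and the library labelled Colon, and took all 15758 of 54532 annotated genes whose level was at least 1 FPKM in either. FPKM divides the reads of a gene by its length in kilobases and by the library total in units of 1000000 reads, so levels of different genes can be compared. Both libraries were made from total RNA of C57BL/6J mice labelled as males, 8 weeks old and fed chow, with no genetic change or treatment given. Each organ had 1 library, so no p-value was computed, and the sources used here do not give the number of animals behind it or the part of the organ taken. A gene was called higher in an organ when its FPKM plus 0.1 was at least 4 times that of the other organ, and log2 ratios below are of FPKM plus 0.1, Stomach over Colon. Folds are ratios of FPKM, with 95% exact binomial (Clopper-Pearson) intervals on reads recovered from the table, and these intervals cover counting error only, not differences between animals.

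The glandular stomach is lined by pit and neck cells that secrete mucus, chief cells that secrete pepsinogen and parietal cells that secrete acid, with endocrine cells between them. The colon is lined by absorptive colonocytes and by many goblet cells, whose gel of Muc2 mucin keeps bacteria away from the cells, and its lamina propria holds plasma cells that secrete IgA. In development the 2 linings come from foregut and hindgut endoderm, and homeobox factors of the Cdx family set intestinal identity.

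The Stomach library held 16009501 assigned reads and the Colon library 11135276, and 21892 genes had a read in Stomach and 22184 in Colon. Pgc alone took 11.6% of the Stomach reads (interval 11.60 to 11.63%) and 0.0270% of the Colon reads. The 12 most abundant protein-coding genes of each library together took 30.7% of the reads in Stomach and 7.49% in Colon. FPKM divides by the library total, so every other gene of the Stomach library is set against this share.

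The 4 marker genes given for the organs followed the labels. Pgc encodes pepsinogen C, the precursor of a gastric protease, and stood at 123656 FPKM in Stomach and 287 FPKM in Colon, a 431-fold higher level (415 to 446). Gkn1 encodes gastrokine 1, a protein of the gastric surface mucus, and stood at 21325 FPKM in Stomach and 51.7 FPKM in Colon (413-fold, 384 to 445). Muc2, the gel-forming mucin of the intestine, was at 0.487 FPKM in Stomach (10 reads) and 2012 FPKM in Colon, which was 4133-fold lower in Stomach (2247 to 8620). Cdx1, an intestinal homeobox factor, had 0 reads in Stomach and 246 FPKM in Colon. At the floor of 3 reads used for genes with 0 reads, that is at least 2301-fold lower in Stomach. All 4 genes were highest in their own organ among the 13 tissues of the same table, which does not include the Intestine library.

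The stretch of genome before the start of 4 of the most unequal genes is shown, because these genes are abundant in 1 organ and at a small share of that level in the other. Each is a RefSeq window on GRCm38.p6, 250 bases before to 50 bases after the gene's start, written 5′ to 3′ on the gene's strand. Capitals mark matches at any position and on either strand to TATAAA (the letters of the TATA box), AGATAA (a motif of GATA factors) and TTTATNG (a motif of Cdx factors). Pgc (chr17:47726592-47726891, plus strand) and Gkn2 (chr6:87373115-87373414, plus strand) were higher in Stomach. Mptx1 (chr1:174330268-174330567, plus strand) and Muc2 (chr7:141690090-141690389, plus strand) were higher in Colon.
Pgc: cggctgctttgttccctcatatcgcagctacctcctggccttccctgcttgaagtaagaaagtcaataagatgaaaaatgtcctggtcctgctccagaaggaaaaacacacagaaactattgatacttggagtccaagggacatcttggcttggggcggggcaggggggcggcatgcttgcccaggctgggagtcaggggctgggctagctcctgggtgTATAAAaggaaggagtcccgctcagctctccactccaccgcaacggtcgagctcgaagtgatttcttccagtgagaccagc
Gkn2: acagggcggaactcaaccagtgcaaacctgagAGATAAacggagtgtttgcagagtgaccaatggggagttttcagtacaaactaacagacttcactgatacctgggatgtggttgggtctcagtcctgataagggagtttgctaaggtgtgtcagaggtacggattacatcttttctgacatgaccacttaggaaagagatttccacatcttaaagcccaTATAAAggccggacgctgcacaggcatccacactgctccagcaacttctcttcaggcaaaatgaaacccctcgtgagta
Mptx1: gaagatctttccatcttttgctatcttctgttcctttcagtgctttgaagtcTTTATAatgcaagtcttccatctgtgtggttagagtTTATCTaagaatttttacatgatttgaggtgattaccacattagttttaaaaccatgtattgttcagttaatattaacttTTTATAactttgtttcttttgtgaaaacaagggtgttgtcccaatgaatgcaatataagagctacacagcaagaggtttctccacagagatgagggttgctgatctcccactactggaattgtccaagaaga
Muc2: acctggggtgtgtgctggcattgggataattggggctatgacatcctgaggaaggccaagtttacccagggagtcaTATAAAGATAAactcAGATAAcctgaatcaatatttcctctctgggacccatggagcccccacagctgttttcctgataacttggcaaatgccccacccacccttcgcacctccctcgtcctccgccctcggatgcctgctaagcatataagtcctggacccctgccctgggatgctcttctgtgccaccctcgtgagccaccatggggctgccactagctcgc
In Pgc and Gkn2 a TATAAA lies 31 and 29 bases before the start. In Mptx1 the TATAAA matches, 198 and 82 bases before the start, and the AGATAA match are all on the opposite strand. In Muc2 the TATAAA lies 174 bases before the start and overlaps the first of its 2 AGATAA matches, and TTTATNG has no match in any of the 4 windows. RefSeq windows were found for 13 of the 20 genes with the largest ratio in Stomach and for 15 of the 20 in Colon. TATAAA was in 7 of the 13 windows of the Stomach genes (53.8%) and 6 of the 15 of the Colon genes (40.0%), against 14.2% of all 27025 windows. AGATAA was in 4 of 13 (30.8%) and 4 of 15 (26.7%), against 11.4% of all windows. TTTATNG was in 2 of 13 and 3 of 15, against 11.3% of all windows. These counts take matches at any position and on either strand, so those of TATAAA are not shares of genes with a TATA box. A match of letters describes these windows and does not show that a factor binds there.

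Across the genes tested, 764 (4.85%) were at least 4-fold higher in Stomach and 1980 (12.6%) at least 4-fold higher in Colon, together 17.4%. Among 13457 protein-coding genes the counts were 582 higher in Stomach (4.32%) and 1342 higher in Colon (9.97%). The median log2 ratio of all tested genes was -0.44, so genes outside the extremes also stood lower in Stomach. Of the called genes, 27.8% were higher in Stomach, and this share was 38.7% with median-of-ratios size factors, 41.2% with upper-quartile scaling and 38.7% when the 10 most abundant genes of each library were left out of its total. These scalings moved the median of all genes to between -0.03 and 0.06. Ratios below are as deposited and are best read against the median of -0.44. Near the threshold, 42 genes higher in Stomach lay within 0.1 (log2) inside it and 52 within 0.1 outside, and 96 and 111 for Colon.

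Colon genes reached larger ratios than Stomach genes. Only 4 Stomach genes passed a log2 ratio of 9, against 68 Colon genes beyond -9, and 0 Stomach genes passed 10, against 37 Colon genes beyond -10. Among the called genes, 197 of the 764 had 0 reads in Colon and 480 of the 1980 had 0 reads in Stomach. Of the 20 most abundant protein-coding genes called higher in Stomach, 15 stood in Colon at 0.160 to 0.468% of their Stomach level, and over all 20 the median share was 0.252% in Colon and 0.00247% in the middle one of 11 other tissues. Pgc was at most at 0.00248% of its Stomach level in any of those tissues. Of the 20 most abundant called in Colon, 7 stood in Stomach below 0.5% of their Colon level, ranging from 0 to 0.498%. The part of such traces in the Colon values of gastric genes was not tested.

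**Figure D1:**
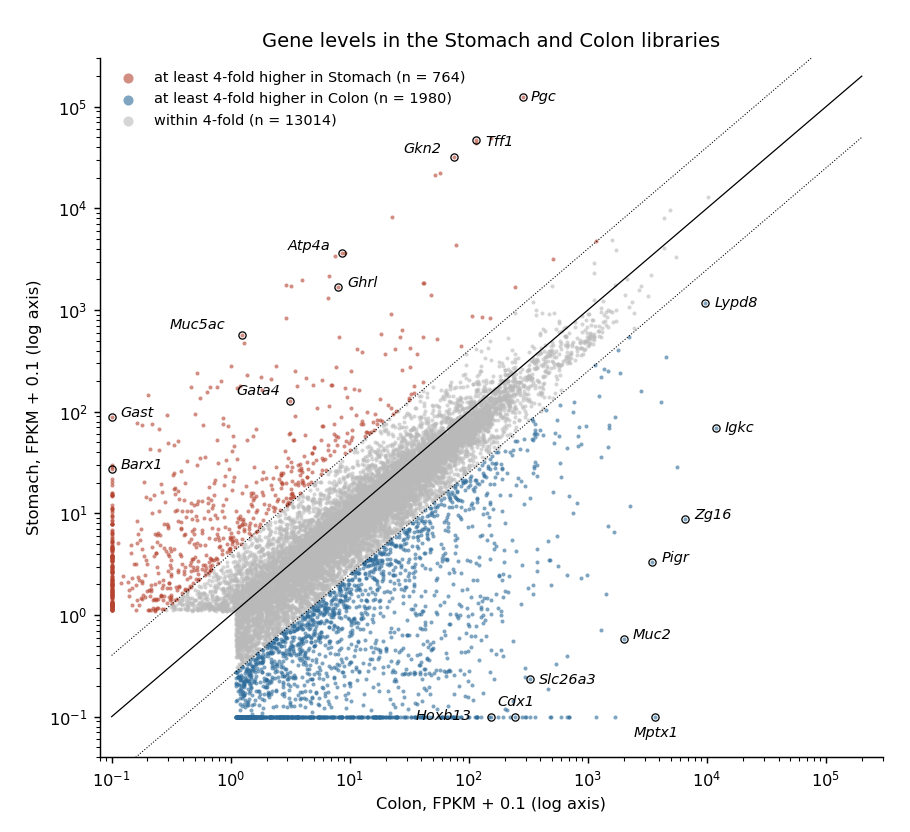
FPKM plus 0.1 of each tested gene in Stomach (vertical, log axis) and Colon (horizontal, log axis), 1 library each, with the solid line at equal levels and dotted lines at 4-fold. Red points are the 764 genes higher in Stomach and blue points the 1980 higher in Colon, and genes such as Mptx1 and Cdx1 lie on the lowest row because they had 0 reads in Stomach.

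Pit, neck, chief and parietal cell genes were higher in Stomach, by medians far past the 4-fold threshold. Of 18 mucous cell genes, all of which were at 1 FPKM or more, 16 were called higher in Stomach and 0 in Colon, with a median log2 ratio of 8.24. Tff1, a trefoil peptide of pit cells that stabilises mucus, was at 46975 FPKM in Stomach and 115 FPKM in Colon (407-fold, 376 to 441). Gkn2, which pairs with Tff1, was at 32253 FPKM in Stomach and 74.99 FPKM in Colon. Cldn18, the claudin of gastric tight junctions, was at 475 FPKM in Stomach and 1.18 FPKM in Colon. Capn9 and B4galnt3 were the list's members within 4-fold, and B4galnt3 was at 18.5 FPKM in Stomach and 15.4 FPKM in Colon. In bulk tissue, fewer cells of a type and less RNA per cell cannot be told apart, here and for every cell type below.

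Of 10 chief cell genes, 8 were at 1 FPKM or more and 7 of them were called higher in Stomach, with a median log2 ratio of 6.34. Gif, intrinsic factor, which binds vitamin B12 and is made by chief cells in the mouse, was at 1735 FPKM in Stomach and 3.10 FPKM in Colon (560-fold, 428 to 748). Chia1, acidic mammalian chitinase, was at 22091 FPKM in Stomach and 56.8 FPKM in Colon. Pga5, a second pepsinogen, was at 176 FPKM in Stomach and 0.569 FPKM in Colon. Bhlha15 (Mist1), the factor of secretory cell architecture, was near the threshold at 15.7 FPKM in Stomach and 3.73 FPKM in Colon (4.21-fold, 3.53 to 5.05). Lipf, gastric lipase, had 0 reads in both libraries.

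Of 15 parietal cell genes, 11 were called higher in Stomach and 1 in Colon, with a median log2 ratio of 5.52. The median level of the 15 was 136 FPKM in Stomach and 0.757 FPKM in Colon. Many thus passed 1 FPKM through Stomach alone, so their shared direction follows from the filter. Atp4a and Atp4b encode the subunits of the proton pump that acidifies the stomach. Atp4a was at 3605 FPKM in Stomach and 8.54 FPKM in Colon, and Atp4b at 3675 FPKM in Stomach and 9.04 FPKM in Colon. The potassium channel subunit Kcne2 was at 86.3 FPKM in Stomach and 0.757 FPKM in Colon, while its partner Kcnq1 was within 4-fold at 149 FPKM in Stomach and 63.8 FPKM in Colon. The list's exception was Aqp4, a water channel of the parietal cell base, at 9.76 FPKM in Stomach and 130 FPKM in Colon. It was highest in Colon among the 13 tissues.

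Markers of the keratinised epithelium of the forestomach, the non-glandular part of the mouse stomach, were close to 0. Of 22 such genes, 3 were at 1 FPKM or more in either library and 9 had 0 reads in Stomach. Krt5, a basal keratin, had 2 reads in Stomach and 0 in Colon, and Trp63, the factor of squamous epithelium, had 2 reads in each. In the Eye library of the same table Krt5 was at 1300.2 FPKM. Sprr1a was the list's only member called, at 94.8 FPKM in Stomach and 23.2 FPKM in Colon.

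The colonic lists moved the other way. Of 34 colonocyte genes, 33 were at 1 FPKM or more, 27 were called higher in Colon and 0 in Stomach, with a median log2 ratio of -6.66. The median level of the 33 was 0.631 FPKM in Stomach and 133 FPKM in Colon. Many thus passed 1 FPKM through Colon alone, so their shared direction follows from the filter. Slc26a3, the chloride/bicarbonate exchanger of the colon surface, was at 0.135 FPKM in Stomach and 324 FPKM in Colon. The water channel Aqp8 was at 0.229 FPKM in Stomach and 544 FPKM in Colon. Car1, a cytosolic carbonic anhydrase, was at 0.137 FPKM in Stomach and 161 FPKM in Colon, and Slc5a8, a carrier of short-chain fatty acids, at 0.187 FPKM in Stomach and 56.8 FPKM in Colon. Guca2a, the hormone guanylin that acts on salt and water secretion, had 0 reads in Stomach and 696 FPKM in Colon (at least 2207-fold lower in Stomach), and its receptor Gucy2c was at 1.47 FPKM in Stomach and 50.8 FPKM in Colon. The members within 4-fold included 2 subunits of the epithelial sodium channel, with Scnn1a at 34.02 FPKM in Stomach and 58.9 FPKM in Colon, and the monocarboxylate carrier Slc16a1, at 17.8 FPKM in Stomach and 57.3 FPKM in Colon.

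Of 24 goblet cell genes, 17 were called higher in Colon and 1 in Stomach, with a median log2 ratio of -5.33. Zg16, a lectin of the mucus layer, was at 8.69 FPKM in Stomach and 6579 FPKM in Colon (757-fold lower in Stomach, 612 to 950). Spink4 was at 161 FPKM in Stomach and 2802 FPKM in Colon. Best2, an anion channel of colonic goblet cells, had 0 reads in Stomach and 17.6 FPKM in Colon. The exception was Sytl2, a regulator of granule exocytosis, at 116 FPKM in Stomach and 20.97 FPKM in Colon. The other 6 were within 4-fold, among them Agr2, a disulfide isomerase needed for mucin folding, at 551 FPKM in Stomach and 1231 FPKM in Colon.

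Crypt and tuft cell lists differed less. Of 14 crypt and proliferation genes, 4 were called, all in Colon (Ascl2, Axin2, Ephb2 and Cdca7), with a median log2 ratio of -1.28. Of all tested genes 12.6% were higher in Colon, and the crypt count was 2 under all 3 other scalings. The stem cell gene Lgr5 was at 4.52 FPKM in Stomach and 2.80 FPKM in Colon, and the proliferation gene Mki67 at 15.1 FPKM in Stomach and 44.5 FPKM in Colon. Axin2 and Ascl2, targets of Wnt signalling, were near the threshold, with log2 ratios of -2.11 and -2.28, and fell within 4-fold under all 3 other scalings. Of 13 tuft cell genes, 11 were at 1 FPKM or more and 1 was called: Avil, at 109 FPKM in Stomach and 5.18 FPKM in Colon. That count is near the 4.85% of all tested genes called higher in Stomach. The tuft cell channel Trpm5 was at 4.23 FPKM in Stomach and 2.97 FPKM in Colon.

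**Figure D2:**
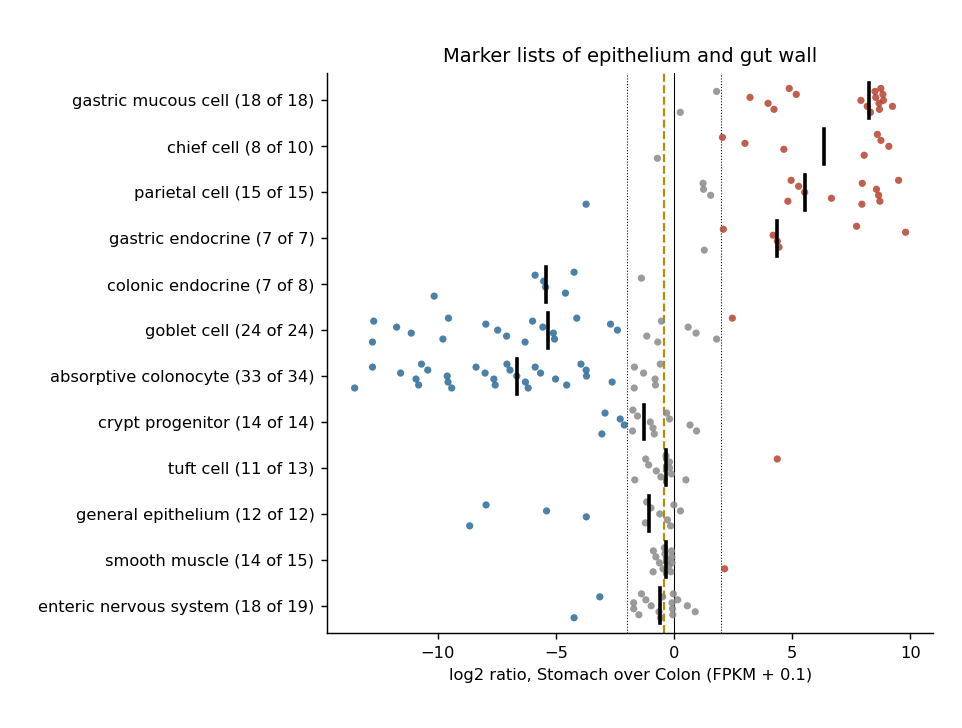
Log2 ratio of FPKM plus 0.1, Stomach over Colon, of the listed genes at 1 FPKM or more in either library (each point is a gene, numbers in brackets are genes shown of genes listed). Black bars are list medians, the dashed line is the median of all tested genes at -0.44, dotted lines mark 4-fold, and red, blue and grey are genes higher in Stomach, higher in Colon and within 4-fold. Gastric lists sit to the right and colonic lists to the left, while smooth muscle and enteric nervous system sit near the dashed line.

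Some relatives among the listed transporters and claudins had opposite directions, and the pairs given here were chosen after their values were seen. Of the proton pumps, Atp4a was high in Stomach (values above), and its paralogue Atp12a, the colonic potassium-transporting pump, had 0 reads in Stomach and 305 FPKM in Colon (at least 3581-fold lower in Stomach). Of the sodium/proton exchangers, Slc9a4 was at 146 FPKM in Stomach and 0.101 FPKM in Colon (2 reads, 1435-fold with an interval of 397 to 11852), and Slc9a3 was at 1.65 FPKM in Stomach and 87.8 FPKM in Colon. Of the anion exchangers, Slc26a9 was at 176 FPKM in Stomach and 0.366 FPKM in Colon, opposite to Slc26a3. Of the claudins, Cldn18 was high in Stomach, while Cldn7 was at 2.35 FPKM in Stomach and 986 FPKM in Colon and Cldn3 at 1.89 FPKM in Stomach and 493 FPKM in Colon. Cldn3 and Cldn7 were counted in a list of 12 genes of epithelium in general, of which 4 were called higher in Colon. In that list Epcam, a surface protein that binds Cldn7, was at 72.8 FPKM in Stomach and 959 FPKM in Colon, while E-cadherin (Cdh1) was at 251 FPKM in Stomach and 305 FPKM in Colon and the keratin Krt19 at 2236 FPKM in Stomach and 3409 FPKM in Colon.

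Endocrine products differed by organ more than the secretory machinery of endocrine cells did. Of 7 gastric products and their enzymes, 6 were called higher in Stomach. The median level of the 7 was 41.2 FPKM in Stomach and 0.964 FPKM in Colon. Several thus passed 1 FPKM through Stomach alone, so their shared direction follows from the filter. Gast, gastrin, the hormone of antral G cells that drives acid secretion, had 653 reads (88.7 FPKM) in Stomach and 0 reads in Colon, which was at least 151-fold higher in Stomach. Ghrl, the hunger hormone ghrelin, was at 1688 FPKM in Stomach and 7.91 FPKM in Colon, and Sst, somatostatin, at 542 FPKM in Stomach and 26.2 FPKM in Colon. Of 8 colonic products, 7 were at 1 FPKM or more and 6 were called higher in Colon. The median level of the 7 was 2.09 FPKM in Stomach and 53.1 FPKM in Colon. Some, such as Insl5, passed 1 FPKM through Colon alone, so their direction follows from the filter. Insl5, a peptide of colonic L cells, had 0 reads in Stomach and 114 FPKM in Colon, and Pyy, peptide YY, was at 3.24 FPKM in Stomach and 197 FPKM in Colon. Gcg, the precursor of GLP-1, was at 2.09 FPKM in Stomach and 53.1 FPKM in Colon. Of 16 genes of endocrine cells in general, 10 were at 1 FPKM or more and 2 were called, both higher in Stomach. These were chromogranin A (Chga), at 537 FPKM in Stomach and 41.3 FPKM in Colon, and the factor Isl1, at 21.5 FPKM in Stomach and 2.43 FPKM in Colon. The prohormone convertase Pcsk1 was at 4.11 FPKM in Stomach and 4.32 FPKM in Colon.

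Most of the listed mucus genes were called higher in 1 of the 2 organs, and the list joins genes known from each. Several, such as Muc6 and Muc13, passed 1 FPKM through 1 organ alone, so their direction follows from the filter. Of 26 mucins, trefoil peptides and mucus proteins, 21 were at 1 FPKM or more, 8 were called higher in Stomach, 11 higher in Colon and 2 neither, and the members taken here overlap the mucous and goblet cell lists above. Muc5ac, the gel mucin of the gastric surface, was at 573 FPKM in Stomach and 1.14 FPKM in Colon (504-fold, 420 to 610). Muc6, the gel mucin of gastric glands, was at 92.3 FPKM in Stomach and 0.192 FPKM in Colon (482-fold, 297 to 843). Both stood opposite to Muc2, whose values are given above. Among trefoil peptides, Tff2 was at 3413 FPKM in Stomach and 7.38 FPKM in Colon, and Tff3, the goblet cell peptide, was at 1.52 FPKM in Stomach and 1429 FPKM in Colon.

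Among membrane mucins, Muc1 was at 368 FPKM in Stomach and 19.6 FPKM in Colon, and Muc13 was at 0.613 FPKM in Stomach and 1281 FPKM in Colon. Muc3 had 0 reads in Stomach and 1175 FPKM in Colon, and reads of Muc3 and the related entry Muc3a cannot be separated with certainty. Proteins that crosslink or coat the colonic gel were lower in Stomach. Fcgbp was at 12.6 FPKM in Stomach and 810 FPKM in Colon, and Clca1, a mucus-processing protease with close relatives, was at 124 FPKM in Stomach and 4153 FPKM in Colon. Lypd8, which holds flagellated bacteria away from the colonic epithelium, was high in both organs, at 1173 FPKM in Stomach and 9702 FPKM in Colon (8.27-fold lower in Stomach, 8.15 to 8.39).

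**Figure D3:**
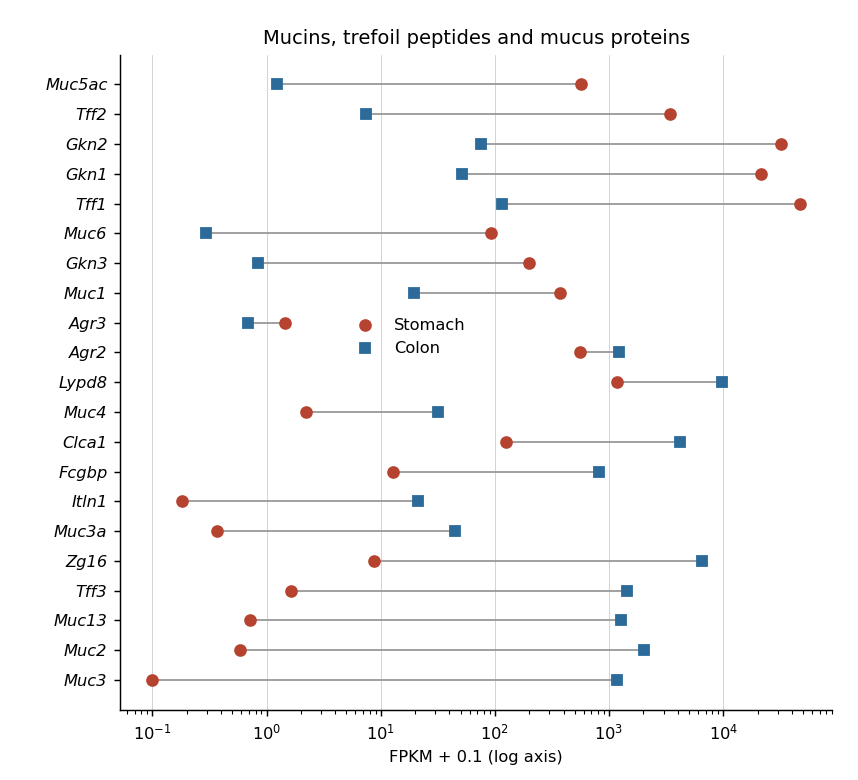
FPKM plus 0.1 on a log axis of mucins, trefoil peptides and mucus proteins at 1 FPKM or more in either library, in Stomach (red circles) and Colon (blue squares), with a line joining the 2 values of each gene. Genes run from the highest to the lowest ratio of Stomach to Colon, from Muc5ac (573 FPKM in Stomach and 1.14 FPKM in Colon) to Muc3 (0 reads in Stomach).

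Enzymes that build the sugars of mucins were split, with most of them within 4-fold. Of 30 such genes, 27 were at 1 FPKM or more, 3 were called higher in Stomach and 10 higher in Colon, with a median log2 ratio of -0.60. The core 1 synthase C1galt1 was at 36.3 FPKM in Stomach and 33.0 FPKM in Colon, and its chaperone C1galt1c1 at 28.3 FPKM in Stomach and 32.2 FPKM in Colon. A4gnt, which adds the terminal sugar of gastric gland mucin, was at 52.6 FPKM in Stomach and 3.26 FPKM in Colon. The sialyltransferases St3gal4, at 10.03 FPKM in Stomach and 756 FPKM in Colon, and St6galnac6, at 3.40 FPKM in Stomach and 477 FPKM in Colon, were lower in Stomach. B3gnt7, an N-acetylglucosaminyltransferase, was at 4.29 FPKM in Stomach and 196 FPKM in Colon. The fucosyltransferase Fut2 was within 4-fold, at 113 FPKM in Stomach and 216 FPKM in Colon.

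Of 927 transcription factors tested, 34 (3.67%) were at least 4-fold higher in Stomach and 76 (8.2%) at least 4-fold higher in Colon, which together was 11.9%. Homeobox factors made up 9 of the 34 and 17 of the 76, from 72 homeobox factors tested. Most of these 9 and 17 passed 1 FPKM through their higher organ alone, so their direction follows from the filter. The Hox genes among them are counted again below. Of 16 factors listed as gastric, mainly epithelial, 14 were at 1 FPKM or more and 9 were called higher in Stomach. Barx1, a factor of mesenchyme, is among the 9 and is counted again in the mesenchyme list below. Hopx, a gene also known from intestinal stem cells, was called higher in Colon. Of 24 factors known from intestinal epithelium, 12 were called higher in Colon and 0 in Stomach.

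Barx1, a homeobox factor of stomach mesenchyme that is needed for gastric identity, was at 27.4 FPKM in Stomach and 0 reads in Colon (at least 142-fold higher in Stomach). Sox2, a foregut factor, was at 4.59 FPKM in Stomach and 0 reads in Colon (at least 35.0-fold higher in Stomach). Gata4 was at 129 FPKM in Stomach and 3.05 FPKM in Colon (42.1-fold, 32.9 to 55.0), and Gata5 at 14.03 FPKM in Stomach and 0.548 FPKM in Colon. Their relative Gata6, in contrast, was within 4-fold at 33.4 FPKM in Stomach and 14.3 FPKM in Colon. Esrrg, a nuclear receptor of parietal cells, was at 53.1 FPKM in Stomach and 1.28 FPKM in Colon. Nkx6-3, a factor of antral endocrine cells, was at 12.6 FPKM in Stomach and 0.361 FPKM in Colon.

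On the colonic side Cdx2, the master regulator of intestinal identity, had 0 reads in Stomach and 85.2 FPKM in Colon (at least 1027-fold lower in Stomach). The goblet and secretory cell factor Atoh1 had 0 reads in Stomach and 24.9 FPKM in Colon. The vitamin D receptor Vdr was at 1.17 FPKM in Stomach and 274 FPKM in Colon, and the bile acid receptor Nr1h4 (FXR) at 6.85 FPKM in Stomach and 40.5 FPKM in Colon. Hnf4a, a factor of gut epithelium, was expressed in both, at 56.8 FPKM in Stomach and 361 FPKM in Colon. Klf5 was near the threshold at 21.4 FPKM in Stomach and 93.02 FPKM in Colon and fell within 4-fold under all 3 other scalings.

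Of the 24 intestinal factors, the other 12 were within 4-fold, and so were 4 of the gastric ones. Klf4 was at 364 FPKM in Stomach and 473 FPKM in Colon, Elf3 at 222 FPKM in Stomach and 438 FPKM in Colon, and Spdef, a goblet cell factor, at 26.9 FPKM in Stomach and 43.5 FPKM in Colon. Foxa1 was at 68.0 FPKM in Stomach and 33.4 FPKM in Colon. Of 21 regional factors of gut mesenchyme, 17 were at 1 FPKM or more, 4 were called higher in Stomach (Barx1, Six2, Isl1 and Gata5) and 2 higher in Colon (Nkx2-3 and Hand1). Of all tested genes 4.85% were higher in Stomach and 12.6% higher in Colon, and the Colon count of 2 is near that share. Foxf1, a factor of gut mesenchyme along its whole length, was at 6.44 FPKM in Stomach and 8.63 FPKM in Colon.

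The Hox genes, which mark position along the body axis, were nearly absent from Stomach at their posterior numbers. The 16 genes of paralogue groups 9 to 13 had 22 reads in all in Stomach and 6472 in Colon, and summed to 0.682 FPKM in Stomach and 306 FPKM in Colon. Of these 16, 10 had 0 reads in Stomach. The 7 at 1 FPKM or more passed that level through Colon alone, so their shared direction follows from the filter. Hoxb13 had 0 reads in Stomach and 155 FPKM in Colon (at least 1822-fold lower in Stomach), Hoxa13 had 0 reads in Stomach and 49.2 FPKM in Colon, and Hoxa10 had 0 reads in Stomach and 29.2 FPKM in Colon. The 23 genes of groups 1 to 8 summed to 22.9 FPKM in Stomach and 95.6 FPKM in Colon. In those groups 14 genes were at 1 FPKM or more, 1 was called higher in Stomach and 3 higher in Colon. The shares of all tested genes were 4.85% and 12.6%, and the Stomach count of 1 is near its share.

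The clusters differed. Hoxa genes of groups 9 to 13 summed to 0.0833 FPKM in Stomach and 129 FPKM in Colon, and Hoxb genes of the same groups to 0.0774 FPKM in Stomach and 172 FPKM in Colon, nearly all from Hoxb13. The 5 Hoxc genes of those groups had 3 reads in Stomach and 0 in Colon. Of the genes of groups 1 to 8, Hoxa7 was at 0.924 FPKM in Stomach and 54.3 FPKM in Colon. Hoxb7, in contrast, was at 2.41 FPKM in Stomach (32 reads) and 0.433 FPKM in Colon (4 reads), a 5.56-fold higher level in Stomach (1.97 to 21.7). Genes within a cluster overlap or lie close together, and the sources used here do not say whether reads were counted by strand.

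**Figure D4:**
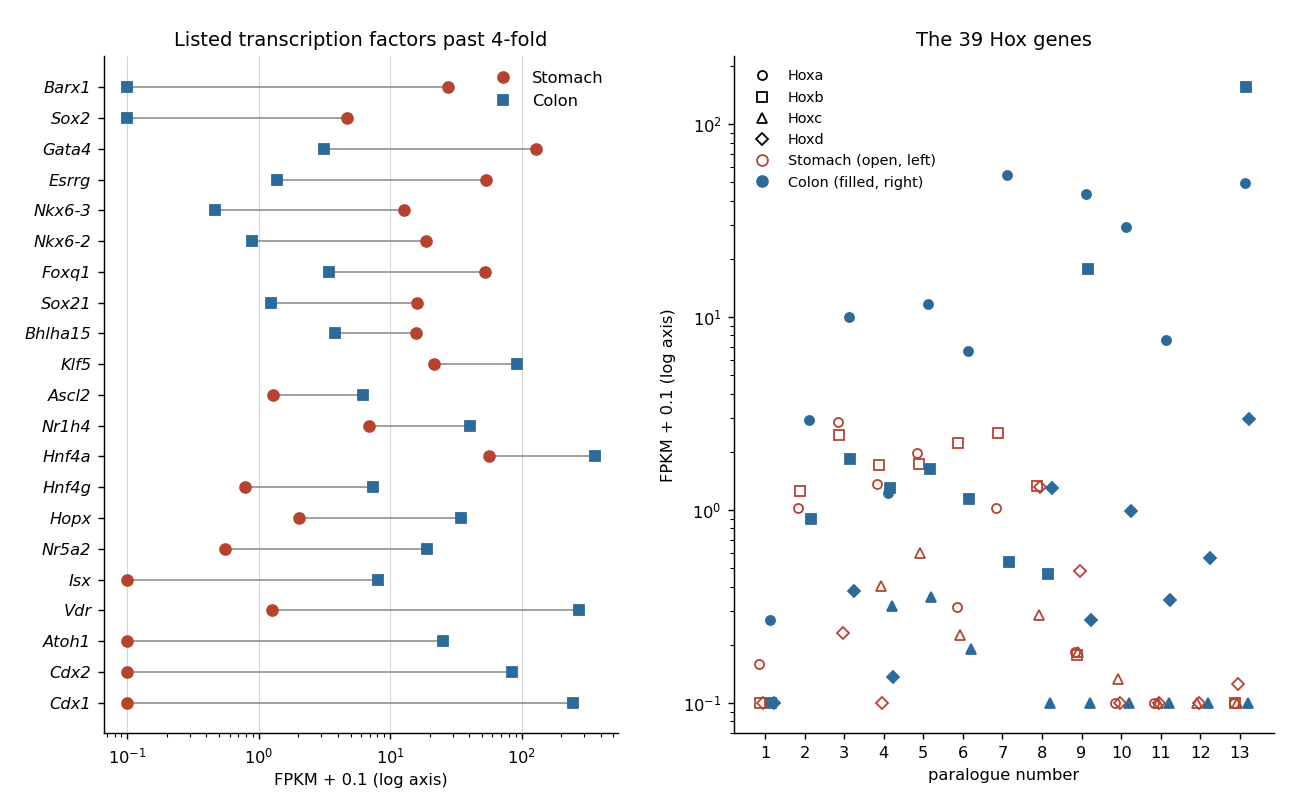
Left, FPKM plus 0.1 on a log axis of gastric and intestinal factors among those past 4-fold, in Stomach (red circles) and Colon (blue squares). Right, FPKM plus 0.1 (log axis) of the 39 Hox genes by paralogue number, in Stomach (open red symbols, left of each number) and Colon (filled blue symbols, right), with the symbol shape giving the cluster. From number 9 on, the Stomach values lie near the floor while Hoxb13 reaches 155 FPKM in Colon.

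Antimicrobial and other defence genes were lower in Stomach. Of 29 listed, 24 were at 1 FPKM or more, 19 were called higher in Colon and 0 in Stomach, with a median log2 ratio of -4.66. The median level of the 24 was 0.357 FPKM in Stomach and 59.6 FPKM in Colon. Many thus passed 1 FPKM through Colon alone, so their shared direction follows from the filter. Mptx1, a mucosal pentraxin and the gene with the largest ratio of all, had 0 reads in Stomach and 3692 FPKM in Colon (at least 15741-fold lower in Stomach). The acute-phase gene Saa1 had 0 reads in Stomach and 1697 FPKM in Colon. The lectin Reg3b had 0 reads in Stomach and 279 FPKM in Colon, the bactericidal goblet cell protein Retnlb 0 reads in Stomach and 671 FPKM in Colon, and Ang4, a ribonuclease, 0 reads in Stomach and 696 FPKM in Colon. Nos2, the inducible nitric oxide synthase, was at 0.0907 FPKM in Stomach and 42.1 FPKM in Colon. Saa1, Reg3b and Ang4 have close relatives in the genome whose reads the counting could split. The hydrogen peroxide-producing oxidase Duox2 was within 4-fold, at 45.9 FPKM in Stomach and 143 FPKM in Colon.

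Genes of B cells, plasma cells and IgA transport were lower in Stomach. Of 27 listed, 26 were called higher in Colon, with a median log2 ratio of -6.33, and the exception was Derl3, at 15.2 FPKM in Stomach and 31.8 FPKM in Colon. The median level of the 27 was 0.190 FPKM in Stomach and 23.2 FPKM in Colon. Many thus passed 1 FPKM through Colon alone, so their shared direction follows from the filter. Igha, the heavy chain of IgA, was at 28.4 FPKM in Stomach and 5619 FPKM in Colon, and the kappa light chain Igkc at 68.5 FPKM in Stomach and 11861 FPKM in Colon. Jchain, which joins IgA into dimers, was at 7.39 FPKM in Stomach and 1485 FPKM in Colon. Pigr, the epithelial receptor that carries dimeric IgA into the lumen, was at 3.21 FPKM in Stomach and 3491 FPKM in Colon (1088-fold lower in Stomach, 887 to 1350). Immunoglobulin genes together took 0.0121% of the reads in Stomach and 2.11% in Colon. Fcer2a, of mature B cells, had 0 reads in Stomach and 13.8 FPKM in Colon.

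Of 27 T and killer cell genes, 20 were at 1 FPKM or more and 18 were called higher in Colon, at low levels throughout, and 10 with a pseudocount of 1 FPKM. The median level of the 20 was 0.221 FPKM in Stomach and 4.27 FPKM in Colon. Many thus passed 1 FPKM through Colon alone, so their shared direction follows from the filter. Cd3e, a chain of the T cell receptor complex, had 0 reads in Stomach and 3.58 FPKM in Colon, and Gzma, a granzyme, was at 0.267 FPKM in Stomach and 14.7 FPKM in Colon. All 10 class II antigen presentation genes were called higher in Colon, with Cd74, the invariant chain, at 73.1 FPKM in Stomach and 1519.8 FPKM in Colon and Ciita, its regulator, at 0.359 FPKM in Stomach and 13.4 FPKM in Colon. Macrophage and other myeloid genes differed less, with 5 of 16 called higher in Colon, or 2 with a pseudocount of 1 FPKM, and a median log2 ratio of -1.74. The count was 3 with median-of-ratios size factors and 3 with upper-quartile scaling. Of all tested genes 12.6% were called higher in Colon under the main rule. Csf1r, the receptor of macrophages, was at 3.21 FPKM in Stomach and 9.47 FPKM in Colon, and Cd14, the endotoxin co-receptor, at 1.91 FPKM in Stomach and 73.4 FPKM in Colon.

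Of 18 interferon-stimulated genes, 7 were called higher in Colon, against 12.6% of all tested genes, and 0 in Stomach. Their median log2 ratio was -1.77, and Irf7 was at 23.0 FPKM in Stomach and 133 FPKM in Colon. Of 12 mast cell genes, 10 were at 1 FPKM or more, 4 were called higher in Stomach and 1 in Colon, at low levels. With a pseudocount of 1 FPKM the Stomach count was 1, the gene Hdc. Cpa3, mast cell carboxypeptidase, was at 3.05 FPKM in Stomach (45 reads) and 0.0973 FPKM in Colon (1 read), a 31.3-fold higher level with an interval of 5.34 to 1263. Ms4a2, a chain of the IgE receptor, was at 2.04 FPKM in Stomach (37 reads) and 0.0793 FPKM in Colon (1 read). Mcpt1, a protease of mucosal mast cells, was at 0.739 FPKM in Stomach and 6.02 FPKM in Colon. Hdc makes histamine in gastric endocrine cells too, and it is also counted in the list of gastric endocrine products.

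**Figure D5:**
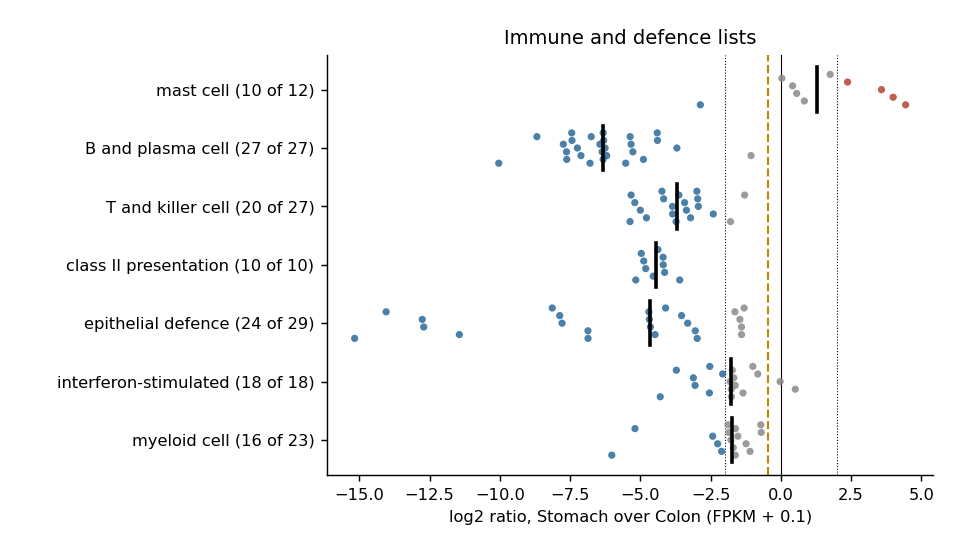
Log2 ratio of FPKM plus 0.1, Stomach over Colon, of immune and defence genes at 1 FPKM or more in either library, each point a gene, with list medians as black bars, the median of all tested genes dashed and 4-fold dotted. The B and plasma cell list has its median at -6.33. Among these lists only that of mast cells has points past 4-fold on the Stomach side. They number 4 at the pseudocount of 0.1 FPKM and 1 at 1 FPKM, which is Hdc, also a gene of gastric endocrine cells.

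Few genes of the muscular wall, nerves and vessels passed 4-fold. Of 14 smooth muscle genes at 1 FPKM or more, 1 was called (Pln, higher in Stomach, and within 4-fold with a pseudocount of 1 FPKM), and the median log2 ratio was -0.34. That count is near the 4.85% of all tested genes called higher in Stomach. Acta2, smooth muscle actin, was at 316 FPKM in Stomach and 368 FPKM in Colon. Of 18 enteric nervous system genes, 2 were called higher in Colon, the neuropeptides Tac1 and Gal, near the 12.6% of all tested genes, and 1 with a pseudocount of 1 FPKM. Of 8 vessel genes 0 were called, with a median log2 ratio of 0.41. Haemoglobin and other red cell genes summed to 254 FPKM in Stomach and 279 FPKM in Colon. Of 10 genes used in every cell, 0 were called, with a median log2 ratio of -0.55.

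Markers of other organs that could adhere in dissection were also read. Liver genes summed to 97.7 FPKM in Stomach and 48.3 FPKM in Colon, with albumin (Alb) at 1.39 FPKM in Stomach and 1.30 FPKM in Colon. Fat cell genes summed to 125 FPKM in Stomach and 108 FPKM in Colon. Striated muscle genes summed to 46.5 FPKM in Stomach and 18.4 FPKM in Colon, mainly Tnni2 in Stomach.

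Pancreatic enzyme genes gave a mixed picture. Among the most abundant protein-coding genes of the Stomach library were Clps, colipase, at 49763 FPKM in Stomach and 153 FPKM in Colon, and Pla2g1b, a secreted phospholipase, at 44328 FPKM in Stomach and 114 FPKM in Colon, and both are best known from the pancreas. Of 16 pancreas markers, 13 were at 1 FPKM or more, 3 were called higher in Stomach and 8 higher in Colon, with sums of 249.6 FPKM in Stomach and 326 FPKM in Colon. Those higher in Stomach were Try4 (72.8 FPKM in Stomach and 5.72 FPKM in Colon), a trypsinogen with close relatives, the lipase relative Pnliprp1 (62.3 FPKM in Stomach and 3.05 FPKM in Colon) and the lipase Cel (20.9 FPKM in Stomach and 3.18 FPKM in Colon). The elastase Cela1, within 4-fold, was the highest of the list at 89.1 FPKM in Stomach and 246 FPKM in Colon. Several other enzymes had few reads in Stomach: carboxypeptidase Cpa1 had 1 read in Stomach and 52 in Colon, chymotrypsinogen Ctrb1 had 3 reads in Stomach and 205 in Colon, and trypsinogen Prss2 had 3 reads in Stomach and 70 in Colon.

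The called genes were then placed among the 13 tissues of the table. Of the 764 genes higher in Stomach, 252 (33.0%) were highest of all tissues in Stomach, and of the 1980 higher in Colon, 926 (46.8%) were highest in Colon. A further 354 of the Colon genes (17.9%) were highest in Thymus. The Intestine library, which the authors deposited as counts in a separately normalized table, was put on the same scale by recomputing its FPKM. Of the Colon genes, 1149 (58.0%) were also at least 4-fold higher in Intestine than in Stomach, and 591 (29.8%) were at least 4-fold higher in Colon than in Intestine. Of the Stomach genes, 587 (76.8%) were at least 4-fold higher in Stomach than in Intestine.

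Named genes fell on both sides of this division. Cdh17, an intestinal cadherin, had 0 reads in Stomach, against 194 FPKM in Colon and 395 FPKM in Intestine, and Reg3b had 0 reads in Stomach, against 279 FPKM in Colon and 3313 FPKM in Intestine. Mptx1 was at 1.60 FPKM in Intestine, Saa1, Retnlb, Insl5 and Hoxb13 had 0 reads there, and Atp12a was at 0.0827 FPKM, so the Colon level of these genes was not shared with the Intestine library. Gata4 ran the other way among the Stomach genes, at 129 FPKM in Stomach, 73.0 FPKM in Intestine and 3.05 FPKM in Colon, as did Gata5, at 14.03 FPKM in Stomach, 23.9 FPKM in Intestine and 0.548 FPKM in Colon. In all, 107 of the Stomach genes (14.01%) were at least 4-fold higher in Intestine than in Colon.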

How the data were processed

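Total RNA of the Stomach and Colon samples was extracted with Trizol and a column clean-up with DNase, per the labels' protocols. The sources used here do not give the aligner, genome build, library kit or strandedness. Per the submitters' processing notes DESeq2 was used, for what is not stated. The comparison was made on FPKM as deposited, in a table by the authors that covers 13 tissues. They deposited raw read counts for 6 further tissues, of which Intestine was recomputed as FPKM with the gene lengths of the first table.

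Whole reads were recovered from the FPKM by the library total and the gene length (tolerance 0.001), and summed to 16009501 in Stomach and to 11135272 of 11135276 in Colon. They were used for counting intervals and for the floor of 3 reads. Of the identifiers, 99.9% were in GENCODE M21 (GRCm38), 98.3% of them with identical coordinates.

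Groups were the tissues in the sample titles, with 1 library each, so a fixed rule of size (1 FPKM in either, 4-fold with 0.1 added) replaced a test. The members and all gene lists were chosen with earlier results of these data known. Genes were named from the lists, from the 20 largest ratios in each direction at 10 FPKM or more, and from the 12 most abundant protein-coding genes of each organ. Predicted models and receptor segments were left out of the naming, and some listed genes are counted but not reported here by name. Alternatives covered pseudocount, scaling, level, fold, gene class and the tissues used. Figures were drawn with matplotlib 3.10.9, and values computed with scipy 1.17.1, pandas 2.3.3 and numpy 2.4.6 under Python 3.11.15.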

Additional observations from a re-analysis of the deposited data

How the results depend on the processing

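No paired analysis was possible because each organ had 1 library, and for the same reason no replicate could be left out. The counts of 764 genes higher in Stomach and 1980 in Colon were 440 and 1170 with a pseudocount of 1 FPKM, 440 and 1215 at a level of 5 FPKM, 1456 and 4155 at 2-fold, and 498 and 1256 at 8-fold. The Stomach count was 1195 without a filter on low values and 491 where the lower bound of the counting interval had to reach 4-fold (1382 in Colon). The 3 scalings gave 1030 to 1069 genes in Stomach and 1483 to 1692 in Colon, and a pseudocount of 0.01 FPKM gave 800 and 2068. The 926 called genes highest in Colon of 13 tissues became 458 when all 19 tissues were used, where the 6 added tissues include Intestine. Listed genes called numbered 69 in Stomach and 190 in Colon and ranged from 56 to 88 and from 161 to 250 over these settings. No log2 ratio of the 279 genes examined, of which 272 were past 4-fold, changed sign under the 5 settings of pseudocount and scaling. That outcome was nearly fixed in advance and is no sign of stability. A pseudocount added to both values cannot change a sign. The 3 scalings divide the libraries by factors whose log2 ratio, Stomach over Colon, was only -0.40 to -0.49. Single lists moved more than the totals of listed genes called. With a pseudocount of 1 FPKM the Colon counts were 10 for T and killer cells, 2 for myeloid cells, 2 for crypt genes and 1 for enteric nerves, and the Stomach counts were 1 for mast cells and 0 for smooth muscle, squamous epithelium and Hox genes. At a level of 5 FPKM they were 7 for T and killer cells, 3 for myeloid cells and, in Stomach, 1 for mast cells. Depth limits genes with few reads, such as Cpa3 and Hoxb7, whose intervals are wide.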

Other observations

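Some transcription factors outside the lists stood apart, and were chosen after their values were seen. Myrf, known as a factor of myelinating cells, was at 58.1 FPKM in Stomach and 0.949 FPKM in Colon. Ptf1a and Rbpjl, which form a complex known from pancreatic acinar cells, were at 1.66 FPKM in Stomach and 0 reads in Colon, and at 3.41 FPKM in Stomach and 0.0942 FPKM in Colon. Esrrb, a relative of Esrrg, was at 3.44 FPKM in Stomach (138 reads) and 0 reads in Colon. On the other side, Foxd2 was at 0.0482 FPKM in Stomach (2 reads) and 21.9 FPKM in Colon, and Evx1, a homeobox gene beside the Hoxa cluster, had 0 reads in Stomach and 2.89 FPKM in Colon (63 reads). Of 9 interferon regulatory factors tested, 5 were called higher in Colon, against 8.2% of all transcription factors tested. Among them were Irf1, at 22.2 FPKM in Stomach and 257 FPKM in Colon, and Irf8, at 5.68 FPKM in Stomach and 79.4 FPKM in Colon. Irf4, also among the 5, was at 0.0948 FPKM in Stomach and 7.74 FPKM in Colon, so it passed 1 FPKM through Colon alone.

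Ly6g, the surface protein by which neutrophils are commonly sorted, had 0 reads in Stomach and 330 FPKM in Colon, and belongs to a family of close relatives. Other neutrophil genes were low in both libraries, with S100a8 at 0 reads in Stomach and 6.39 FPKM in Colon and S100a9 at 0.243 FPKM in Stomach and 1.74 FPKM in Colon. Tgm3, a transglutaminase best known from skin, had 1 read in Stomach and 9549 reads (207 FPKM) in Colon, and was at 0.0294 FPKM in Intestine. Crisp1, known from the epididymis, was at 77.5 FPKM in Stomach (1756 reads) and 0.0634 FPKM in Colon (1 read), and at 11117 FPKM in the white fat library (WAT), its highest among the 13 tissues.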
